A study of Mus musculus with 55 samples.

Results

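Livers of Collaborative Cross (CC) mice, recombinant inbred lines bred from 8 inbred founder strains, were compared between lines that carry the CAST founder haplotype at the Cyp3a25 locus of chromosome 5 and lines that carry the B6 haplotype there, over all expressed genes. The CAST lines were IL-519, IL-1061, IL-2146, IL-2689 and IL-1513, with 9 mice in 5 lines, and the B6 lines were IL-2126, IL-2011, IL-2156, IL-1452 and IL-557, with 8 mice in 5 lines. Together they make 17 of the 55 mice and 10 of the 29 lines of the series. The line names came from the strain labels and the haplotypes from the study's haplotype display, and genotypes were not analysed here. CAST stands for the wild-derived CAST founder and B6 for the C57BL/6J founder, whose genome is also the reference to which the reads were aligned. The mice were untreated males on chow, and outside this locus each line carries its own mixture of the founder genomes.

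Cyp3a enzymes are cytochrome P450 monooxygenases of the endoplasmic reticulum that oxidise drugs, steroids and bile acids in the liver and intestine. In the mouse, most of their genes lie in a cluster on chromosome 5, and the nuclear receptors PXR and CAR raise the transcription of several of them when a foreign compound is sensed. Mice of 1 inbred line share their genotype, so the line and not the mouse is the unit here, and the comparison asks which genes, besides the one that defines the sets, differ with the haplotype at this locus: first its neighbours on the chromosome and then the rest of the genome.

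The 17 libraries held between 20.5 and 34.0 M (mega) estimated fragments. All 13 mice that had a line mate among the 17 were closest to a line mate (Spearman's rho of log2(FPKM + 1) between 0.960 and 0.989 for line mates, with a median of 0.914 for other pairs). The B6 lines were older than the CAST lines. The line means were 8.0, 8.3, 9.3, 8.1 and 8.1 weeks in the CAST lines and 10.9, 9.4, 10.0, 9.9 and 8.4 weeks in the B6 lines, in the order of the line names above (8.36 ± 0.54 against 9.72 ± 0.91 weeks, SD, n = 5 lines each; two-sided exact permutation test over all assignments of the lines, p = 0.0159). Only IL-557 of the B6 lines was younger than a CAST line, IL-2146. CAST mice weighed between 16.0 and 22.0 g and B6 mice between 17.8 and 38.0 g (exact permutation test on line means, p = 0.151). Depth was 27.7 ± 5.0 against 25.0 ± 2.6 M fragments (SD, n = 5 lines each; exact permutation test, p = 0.302). Hepatocyte markers such as Alb and Apoa1 were high in all 10 lines. Of 8 marker sums of cell types, the cholangiocyte sum alone had p under 0.05, with 19.8 to 43.9 FPKM in the CAST lines and 24.6 to 154.8 FPKM in the B6 lines (exact permutation p = 0.0317, not adjusted for the 8 sums). That sum rested on Spp1, since 4 of the 7 markers stayed below 1 FPKM in every line. The part of age and of this marker sum in the differences below was not tested beyond the values given.

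Cyp3a25 (ENSMUSG00000029630, mm9 chr5:146788770-146821194, minus strand) is the gene at whose eQTL the lines were chosen in these same mice, so its values are a description of the sets and no test of it is given. It stays in the table over which p-values were adjusted, and its place in any count below is named and supports nothing. FPKM, the number of fragments normalised to the length of the transcript and to the size of the library, is used here as deposited, and a line's value is the mean of its mice. In the CAST lines Cyp3a25 stood at 1298 FPKM in IL-519, 1674 in IL-1061, 1092 in IL-2146, 1412 in IL-2689 and 1514 in IL-1513. In the B6 lines it stood at 160.5 FPKM in IL-2126, 273.6 in IL-2011, 220.1 in IL-2156, 240.0 in IL-1452 and 419.0 in IL-557. Every CAST line was above every B6 line, and the difference of the mean log2(FPKM + 1) was 2.47, which is 5.53-fold. With age as a covariate the difference was 1.80. The other 19 lines of the series ranged from 194.6 to 1502 FPKM with a median of 373.0. The gene's fragments numbered between 6327 and 90634 per mouse, so counting error is small for it.

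The sets also differed in the form of the Cyp3a25 transcript. The share of Cyp3a25-001 (ENSMUST00000068317), the coding isoform with 13 exons, was 98.5% in IL-519, 98.7% in IL-1061, 93.6% in IL-2146, 98.7% in IL-2689 and 98.1% in IL-1513. In the B6 lines it was 69.5% in IL-2126, 76.3% in IL-2011, 79.7% in IL-2156, 84.5% in IL-1452 and 74.3% in IL-557. Most of the rest was Cyp3a25-002 (ENSMUST00000145062), annotated as a target of nonsense-mediated decay, at 2.45% ± 2.22 in the CAST lines and 22.7% ± 5.6 in the B6 lines (SD, n = 5 lines each). Cyp3a25-002 has 12 exons and lacks exon 6. Exon 6 is shown because it is the piece by which these isoforms differ. It spans 89 bases, which is not a multiple of 3, and stands in capitals here between 20 intronic bases on each side, read 5′ to 3′ on the minus strand from mm9 chr5:146804829-146804957.
Cyp3a25 exon 6: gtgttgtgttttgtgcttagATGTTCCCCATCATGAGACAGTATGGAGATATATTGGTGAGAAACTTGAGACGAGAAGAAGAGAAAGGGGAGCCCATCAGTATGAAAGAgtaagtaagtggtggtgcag

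The FPKM of each isoform was compared as well. Cyp3a25-001 had 1369 ± 231 FPKM in the CAST lines and 202.5 ± 72.2 FPKM in the B6 lines, whereas Cyp3a25-002 had 28.8 ± 16.8 FPKM in the CAST lines and 58.9 ± 28.3 FPKM in the B6 lines (SD, n = 5 lines each). The FPKM of the isoform without exon 6 overlapped between the sets, from 17.7 to 57.7 FPKM in the CAST lines and from 36.6 to 107.2 FPKM in the B6 lines. The mice of IL-2146 disagreed with each other at this gene. One had 883.4 FPKM with 87.8% of Cyp3a25-001 and the other had 1301 FPKM with 99.4%, while the shares in the other 7 CAST mice lay between 97.7% and 98.9%.

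**Figure D1:**
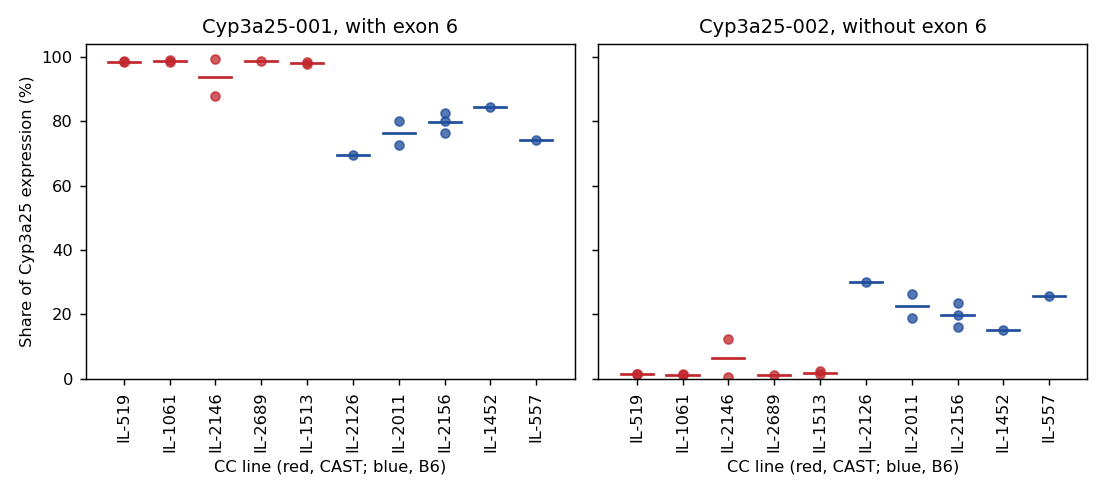
Share of Cyp3a25 expression (vertical axis, percent) taken by isoform Cyp3a25-001, with exon 6, and by Cyp3a25-002, without it, in each mouse (points) of the 5 CAST lines (red) and the 5 B6 lines (blue), with bars at the line means. The CAST lines lie at 93.6% or more for Cyp3a25-001 and the B6 lines at 84.5% or less, and 1 mouse of IL-2146 lies at 87.8%.

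Over all genes, total expression was compared between the 5 CAST and the 5 B6 line means of log2(FPKM + 1) with limma, with p-values adjusted by Benjamini-Hochberg over 11284 genes. The sets differed at 5 genes, 3 higher and 2 lower in the CAST lines, which is 0.0443% of the genes tested (0.0266% higher and 0.0177% lower). Cyp3a25, by whose eQTL the lines were chosen, was 1 of them, and 3 of the other 4 lay within 1.4 Mb of it on chromosome 5: Cyp3a16, Prhoxnb and Rpl21. The fifth was Gm2023 on chromosome 4. At an unadjusted p under 0.05, 449 genes differed (3.98%), 152 higher (1.35%) and 297 lower (2.63%). The line means of log2(FPKM + 1) of 84 genes did not overlap between the sets (0.744%), with 33 higher (0.292%) and 51 lower (0.452%). The whole distribution was shifted the same way, with 6792 of the 11284 genes lower and 4448 higher in the CAST lines and a median difference of -0.0474. That median was 0.0014 after median centring and 0.0057 after quantile normalization. Whether the excess of lower genes reflects this shift was not tested. edgeR on counts summed per line called 4 of 11239 genes, all of them near Cyp3a25. DESeq2 on the same counts called 46 of 11239 genes, including all 5, and 8 of the 46 lay near Cyp3a25. With limma, Rpl21 alone was called without IL-1061, IL-1513 or IL-2011, and 3 genes were called without IL-2126, IL-2156 or IL-2689. With age as a covariate 2 genes, Cyp3a25 and Rpl21, were called, and with depth as a covariate 1, Rpl21. The study lists Cyp3a16, Rpl21, Cyp3a13, Zdhhc4, Gtf3a, Selenbp2, Srp54a, Ttc39c, Ugt1a6b, Ugt1a10, H2-T10 and Nudcd2, all named here, among its genes with an eQTL in the same mice, so those differences are not independent evidence.

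Cyp3a16 (ENSMUSG00000038656, chr5:146197178-146230592) encodes a P450 known from fetal and young liver and, in adults, mainly from females. The CAST lines had 20.4 FPKM in IL-519, 13.2 in IL-1061, 5.47 in IL-2146, 6.29 in IL-2689 and 11.8 in IL-1513. Of the B6 lines, IL-1452 had 0.08 FPKM and the other 4 were listed at 0. Each CAST line was thus above each B6 line, and the difference was 3.34 ± 0.37 (SE) on the log2(FPKM + 1) scale (limma, adjusted p = 0.0140). Summed over the mice, 5127 fragments in the CAST set stood against 3.18 in the B6 set, a ratio per fragment sequenced of 1292 with a 95% counting interval of 469 to 6640 (exact Poisson on 3 counts, covering counting error only). The level also varied inside a line, with 0.54 FPKM in one IL-2146 mouse and 10.4 FPKM in the other. In the other 19 lines the median was 0.01 FPKM and the highest 40.6 FPKM. With age as a covariate the difference was 2.87 (limma, adjusted p = 0.114), and it also missed the threshold with body weight (0.0734), with depth (0.0683), with mice as the unit and the line as a block (0.0659), and without IL-1061, IL-1513, IL-2011, IL-2126 or IL-2156, at an adjusted p of up to 0.0758.

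Cyp3a41a (ENSMUSG00000075551, chr5:146505635-146531712), likewise known from female liver, had 15.2, 21.2, 5.76, 12.8 and 26.5 FPKM in the CAST lines and 0.79, 0.455, 0.24, 3.96 and 0.88 FPKM in the B6 lines, in the same order of lines. The line means did not overlap and differed by 2.96 ± 0.46 (SE) on the log2(FPKM + 1) scale, without passing the threshold over all genes (limma, adjusted p = 0.114), which it did pass without IL-1452 (0.0454), with mice as the unit and the line as a block (0.00447), and with DESeq2 (2.29e-05). Its nearly identical neighbour Cyp3a41b, 99.7% identical in the transcript, was at or near 0 in 9 of the 10 lines and at 1.03 FPKM in IL-519 (adjusted p = 0.956). Cyp3a44 had 1.08 to 2.35 FPKM in the CAST lines and 0.01 to 1.67 FPKM in the B6 lines (difference 0.77 ± 0.27, SE; adjusted p = 0.956). The most abundant gene of the cluster, Cyp3a11, the main drug-inducible Cyp3a enzyme of adult mouse liver, had 544.7 to 2480 FPKM in the CAST lines and 515.0 to 3278 FPKM in the B6 lines (0.31 ± 0.57, SE; adjusted p = 0.984), and its difference turned to -0.81 with age and to -0.15 with body weight as a covariate. Cyp3a59 had 16.7 to 25.5 FPKM against 9.11 to 36.8 FPKM (0.46 ± 0.34, SE; adjusted p = 0.956), and its difference turned to -0.28 with age. Cyp3a13, which lies outside the cluster at chr5:138334160-138362847, had lower values in the CAST lines, 27.0 to 40.9 against 36.5 to 94.7 FPKM, and its ranges overlapped (-0.76 ± 0.24, SE; adjusted p = 0.956). Of the 8 Cyp3a genes tested, 2 were called by limma (0.0443% of all genes), Cyp3a16 and Cyp3a25, by which the lines were chosen. Line means did not overlap for these and for Cyp3a41a (0.744% of all genes).

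Cyp3a genes resemble each other, and fragments that match several of them were shared out by the quantification. Cyp3a16, Cyp3a41a, Cyp3a41b, Cyp3a44 and Cyp3a11 are between 91.7% and 99.7% identical over their transcripts. Their fragments together, as CPM (estimated counts scaled to the total of the library, with no length correction), came to 4090 ± 1756 CPM in the CAST lines and 3572 ± 2452 CPM in the B6 lines (SD, n = 5 lines each; exact permutation test, p = 0.635), of which Cyp3a11 made 4035 and 3568 CPM. Cyp3a16 contributed 19.0 and 0.0251 CPM to the sum. For Cyp3a25, with 2697 CPM in the CAST lines and 499.0 CPM in the B6 lines, the copy Cyp3a59 (97.0% identical) added 40.9 and 33.1 CPM and Cyp3a57 (94.3%) added 0.473 and 0.0203 CPM.

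**Figure D2:**
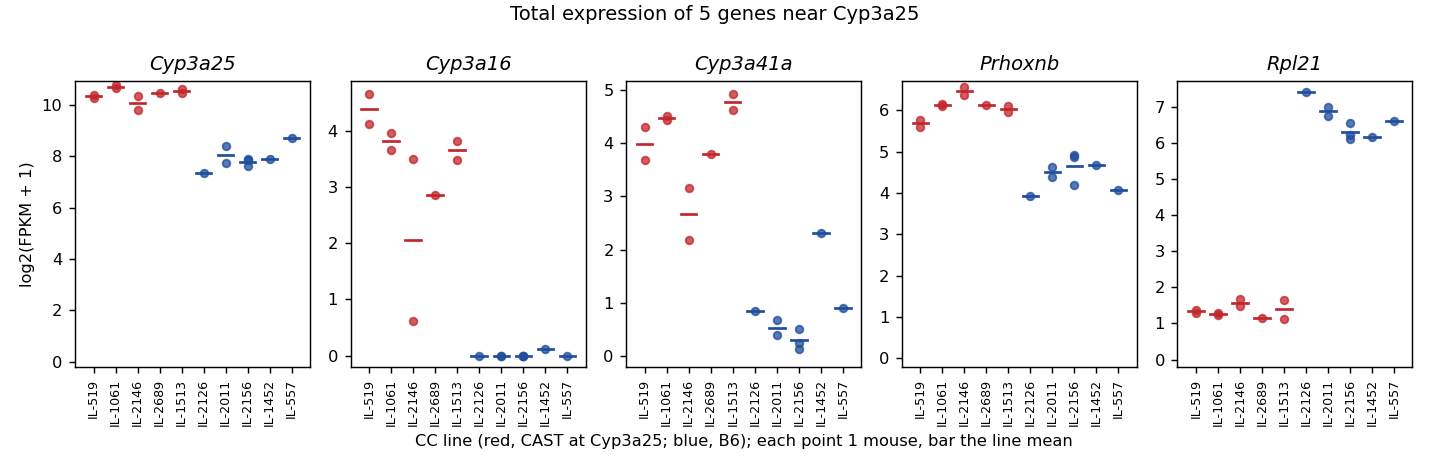
Total expression as log2(FPKM + 1) (vertical axes, each with its own scale) of Cyp3a25, Cyp3a16, Cyp3a41a, Prhoxnb and Rpl21 in each mouse (points) of the 5 CAST lines (red) and 5 B6 lines (blue), with bars at the line means. The line means of the 2 sets do not overlap for any of the 5 genes, Rpl21 is the only one that is lower in the CAST lines, and the 2 mice of IL-2146 lie apart for Cyp3a16.

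Prhoxnb (ENSMUSG00000075543, chr5:148126562-148134016, minus strand), named Urad in current annotation, encodes a decarboxylase of uric acid breakdown. It had 50.6 FPKM in IL-519, 69.3 in IL-1061, 88.1 in IL-2146, 69.4 in IL-2689 and 64.7 in IL-1513, against 14.2 in IL-2126, 21.9 in IL-2011, 25.1 in IL-2156, 24.6 in IL-1452 and 15.8 in IL-557. Every CAST line was above every B6 line, and the difference was 1.72 ± 0.19 (SE) on the log2 scale, or 3.30-fold (limma, adjusted p = 0.0140). No transcript that matched it over 50% of its length at 90% identity was found. The difference was 1.87 with age (adjusted p = 0.114) and 1.68 with depth (0.0683) as a covariate, and between 1.61 and 1.82 when each line was left out in turn, with an adjusted p of up to 0.0729. Without IL-1061, IL-1513, IL-2011 or IL-2689 it did not pass the threshold.

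Rpl21 (ENSMUSG00000041453, chr5:147644466-147648608, plus strand), which encodes a protein of the large ribosomal subunit, had the smallest p-value and the largest log2 difference of the 11284 genes tested. It had 1.52 FPKM in IL-519, 1.39 in IL-1061, 1.99 in IL-2146, 1.24 in IL-2689 and 1.67 in IL-1513, against 169.5 in IL-2126, 117.8 in IL-2011, 78.5 in IL-2156, 70.7 in IL-1452 and 97.8 in IL-557. The difference was -5.33 ± 0.22 (SE) on the log2(FPKM + 1) scale, 40.3-fold higher in the B6 lines (limma, adjusted p = 5.11e-06). In the other 19 lines the level ran from 0.99 to 108.0 FPKM. Ribosomal protein genes have many processed copies, and 1 of them, the pseudogene Gm10163 (ENSMUSG00000066443, chr9:88285640-88286189), took more fragments than Rpl21 in every one of the 10 lines. Over the 529 bases that the copy shares with the Rpl21-002 transcript, they differ at 2 positions, T720C and T816C, counted from 1 at the 5′ end of the transcript with the base of Rpl21 first. The stretch around both is shown because it holds all that tells the genes apart in the shared part. It is read from mm9, for Rpl21 from transcript positions 700 to 836 (chr5:147647213-147647498, exon 5 to exon 6, coding, with the intron removed) and for Gm10163 from chr9:88285990-88286126, with the differing bases in capitals.
Rpl21: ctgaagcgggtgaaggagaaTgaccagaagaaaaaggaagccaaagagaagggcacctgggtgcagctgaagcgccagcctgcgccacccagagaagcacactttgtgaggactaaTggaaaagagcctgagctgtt
Gm10163: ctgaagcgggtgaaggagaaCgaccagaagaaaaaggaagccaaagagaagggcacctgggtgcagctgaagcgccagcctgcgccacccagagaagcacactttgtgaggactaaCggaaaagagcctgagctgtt

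Gm10163 moved the other way. It had 171.3 ± 38.0 CPM in the CAST lines and 120.5 ± 27.1 in the B6 lines (SD, n = 5 lines each; exact permutation test, p = 0.0317, and up to 0.0794 without 1 line), whereas Rpl21 had 1.64 ± 0.22 and 90.2 ± 33.9. The genes together gave 172.7, 137.5, 237.1, 152.3 and 165.1 CPM in the CAST lines and 303.7, 233.7, 173.2, 149.1 and 193.9 in the B6 lines. These sums overlapped, at 172.9 ± 38.3 and 210.7 ± 60.5 (exact permutation test, p = 0.270). The share of Rpl21 in the sum was 0.84% to 1.05% in the CAST lines and 38.1% to 47.6% in the B6 lines. In all, 50 genes and pseudogenes matched Rpl21 at 90% identity over 50% of its length, and with all of them added the difference was -0.26 on the log2 scale (exact permutation test, p = 0.262).

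**Figure D3:**
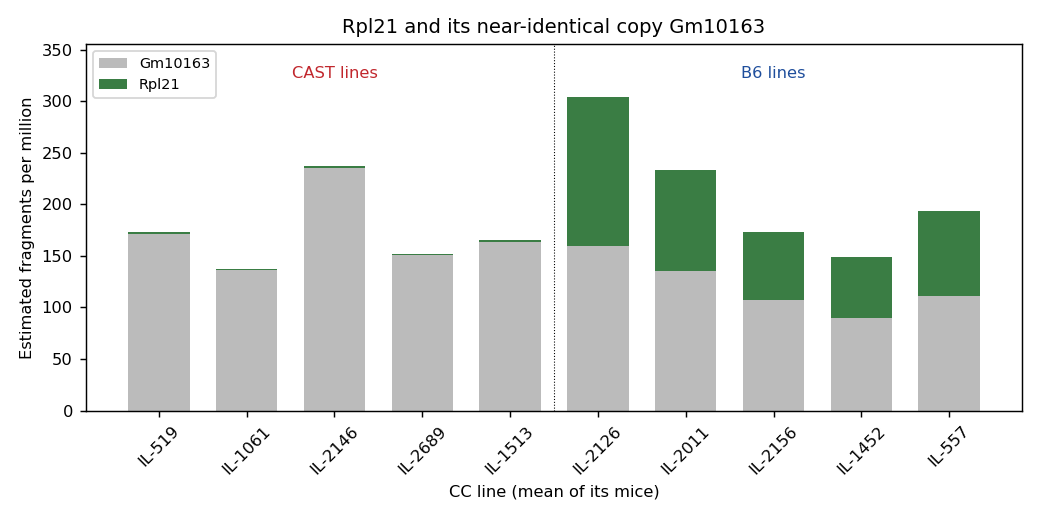
CPM, the estimated fragments scaled to library size (vertical axis, mean of the mice of a line) assigned to Gm10163 (grey) and to Rpl21 (green, stacked on it) in the 5 CAST and 5 B6 lines. The total bars of the sets overlap, from 137.5 to 237.1 against 149.1 to 303.7, while the green part is at most 1.99 CPM in the CAST lines and at least 59.6 in the B6 lines.

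The isoform ratio of Rpl21 differed as well, which is not a result independent of its total expression. The isoform concerned made most of the gene in the B6 lines, so the same fragments enter both measures. A difference of splicing apart from the total was not tested. Rpl21-002 (ENSMUST00000075453), the isoform shown above, made 5.92%, 3.23%, 14.7%, 0% and 1.46% of the gene in the CAST lines and 98.2%, 96.2%, 96.4%, 97.1% and 95.6% in the B6 lines. It was the only one of 6575 isoform-ratio traits, 1 per gene, to pass an adjusted p under 0.05 (0.0152%; limma, difference -91.7 ± 4.4 percentage points, SE, adjusted p = 2.43e-06). What was left in the CAST lines was mostly Rpl21-003, at 59.3% ± 8.6 (SD, n = 5) against 1.19% ± 0.48 in the B6 lines. These CAST ratios rest on few fragments, since the gene had as few as 29.0 in 1 mouse.

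Differences were counted over all genes near Cyp3a25. Of 69 genes tested within 5 Mb of the middle of Cyp3a25, 4 were called (5.80%) and 20 had an unadjusted p under 0.05 (29.0%, against 3.98% of all genes), 10 higher and 10 lower in the CAST lines. The line means of 13 did not overlap (18.8%, against 0.744% of all genes), 8 higher and 5 lower. Directions were mixed over the window, with 30 of the 69 genes higher and 39 lower, and the median difference was -0.02 against -0.05 over all genes. The median size of a difference was 0.158 near Cyp3a25 and 0.137 over all genes on the log2 scale. These counts include Cyp3a25 itself and the other 3 called genes of the window, and neighbouring genes of 1 line share their haplotype, so that they are not independent of each other.

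**Figure D4:**
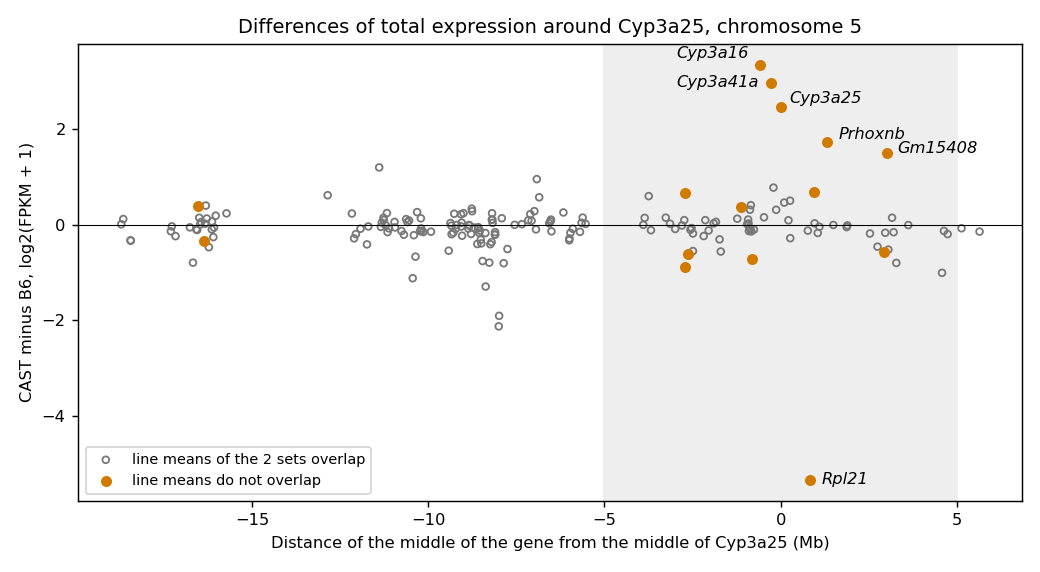
CAST minus B6 difference of the mean log2(FPKM + 1) (vertical axis) of each gene tested within 20 Mb of Cyp3a25, by the distance of its middle from the middle of Cyp3a25 (horizontal axis, Mb; shaded, 5 Mb to either side). Filled points are genes whose line means do not overlap between the sets, 13 of them inside the shaded window and 2 outside, with Rpl21 at -5.33 and Cyp3a16 at 3.34 as the extremes. The 13 include Cyp3a25, by which the lines were chosen.

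The members of the window whose line means did not overlap and that did not pass the adjusted threshold were named after their values were seen. Gm15408 (chr5:149818538-149824352), a noncoding transcript, had 3.72, 3.50, 8.13, 5.49 and 3.8 FPKM in the CAST lines and 0.70, 1.19, 0.78, 1.80 and 0.81 FPKM in the B6 lines (1.5 ± 0.22, SE; limma, adjusted p = 0.0940), and passed with mice as the unit and the line as a block (0.0111) and with DESeq2 (5.6e-06). Zdhhc4, a protein palmitoyltransferase, had 10.2 to 17.2 FPKM against 6.54 to 9.76 FPKM. The noncoding 0610040B10Rik, whose first bases overlap those of Zdhhc4 on the other strand, went the other way, at 0.59 to 0.77 against 1.19 to 3.42 FPKM. Default settings of the quantification use no strand, so reads of this pair cannot be told apart where they overlap. Gtf3a, the transcription factor of the 5S ribosomal RNA genes, had 9.06 to 18.3 against 5.87 to 8.82 FPKM, and the ubiquitin ligase gene Smurf1 had 3.58 to 4.54 against 2.42 to 3.59 FPKM. For Smurf1 the line means were apart on the log2 scale but met on the FPKM scale, at 3.58 in IL-519 and 3.59 in IL-2156. Lower in the CAST lines were Kdelr2, the receptor that returns proteins to the endoplasmic reticulum (26.2 to 34.8 against 35.4 to 82.6 FPKM), the zinc finger gene Zfp655 (5.93 to 6.54 against 8.26 to 17.8 FPKM) and Katnal1, which belongs to the katanin family of microtubule-severing enzymes (0.335 to 0.64 against 0.76 to 1.79 FPKM). The adjusted p of these 7 genes was between 0.724 and 0.956 with limma. DESeq2 called 2 of them, Zdhhc4 and Katnal1, against 46 of 11239 genes over all. The differences of all 8 kept their sign when each line was left out in turn, which line means that do not overlap make certain in advance.

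The frequency fell with distance along chromosome 5. Of the genes within 2 Mb, 27.0% of 37 had an unadjusted p under 0.05, and of those between 2 and 5 Mb, 31.2% of 32. The share was 12.9% of 70 genes between 5 and 10 Mb, 8.62% of 58 between 10 and 20 Mb, 4.33% of 231 between 20 and 50 Mb and 2.96% of 304 farther away. On the other chromosomes, or with no position, it was 3.75% of 10552 genes. Beyond 20 Mb the share was thus close to that of the other chromosomes. Line means that did not overlap were seen for 21.6%, 15.6%, 0%, 3.45%, 0.866% and 0.658% of the genes in these 6 bins and for 0.616% on the other chromosomes. The zero of the 5 to 10 Mb bin rests on 70 genes, 9 of which had an unadjusted p under 0.05. The 4 genes called by limma within 10 Mb lay inside 2 Mb, while 3 of the 8 genes that DESeq2 called within 5 Mb, Zdhhc4, Katnal1 and Gm15408, lay outside 2 Mb. Cyp3a25, by which the lines were chosen, is among these 4 and these 8 and is counted in the bin within 2 Mb.

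**Figure D5:**
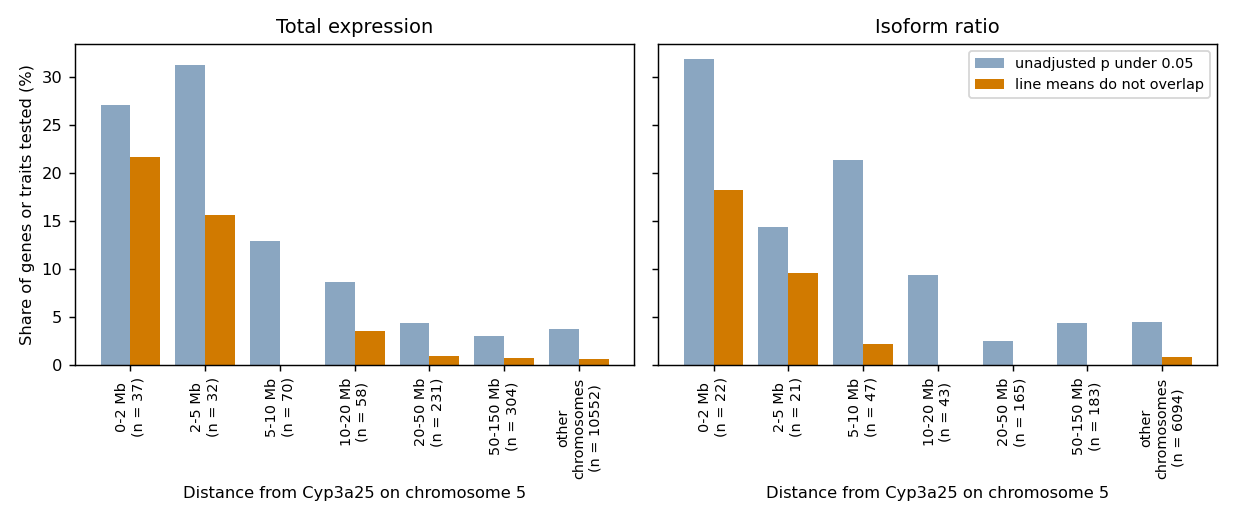
Share of genes (left) or isoform-ratio traits (right) tested, in percent, that have an unadjusted p under 0.05 (blue) or line means that do not overlap between the CAST and B6 lines (orange), by distance from Cyp3a25 on chromosome 5 and for the other chromosomes, with the number tested under each pair of bars. The blue bars of total expression fall from 27.0% and 31.2% in the nearest bins to 3.75% on the other chromosomes. Cyp3a25, by which the lines were chosen, is counted in the nearest bin of each panel.

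Isoform ratios were counted in the same way. Of 43 traits within 5 Mb, 10 had an unadjusted p under 0.05 (23.3%, against 4.62% of all 6575 traits) and 6 had line means that did not overlap (14%, against 0.837%), and both counts include the Cyp3a25 trait. Over all traits, 2.39% were higher and 2.24% lower at an unadjusted p under 0.05, and 0.487% were higher and 0.35% lower without overlap. Apart from Cyp3a25 and Rpl21, the 4 non-overlapping traits, again named after their values were seen, were those of 0610040B10Rik, Zdhhc4, Gtf3a and Mtif3. The isoform 0610040B10Rik-002 made 66.2% to 93.7% in the CAST lines and 27.9% to 59.5% in the B6 lines (adjusted p = 0.232), on as few as 6 fragments in a mouse. Zdhhc4-001 made 80.9% to 84.9% against 59.6% to 73.9% (adjusted p = 0.620). Lower shares in the CAST lines were seen for Gtf3a-003, with 18.6% to 25.8% against 31.2% to 45.8%, and for Mtif3-003, an isoform of a mitochondrial translation initiation factor, with 39.0% to 57.6% against 59.5% to 70.8% (adjusted p = 0.910 for each). For Zdhhc4, Gtf3a and 0610040B10Rik, the line means did not overlap in either measure, and neither measure passed the adjusted threshold with limma.

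Away from this window 1 gene was called by limma. In segments of 10 Mb outside the window, the most genes whose line means did not overlap was 3, in 1 segment each of chromosomes 3, 8 and 13. Gm2023 (ENSMUSG00000078736, chr4:42248504-42250497) was at 0 FPKM in 4 CAST lines and at 0.085 FPKM in IL-1061, and at 0.66, 0.625, 0.79, 0.53 and 1.04 FPKM in the B6 lines (-0.72 ± 0.09, SE; limma, adjusted p = 0.0262). The levels are low, with 2.43 fragments in all CAST mice and 97.0 in all B6 mice. Its transcript is identical over 720 bases to that of the chemokine gene Ccl19 and 98.2% identical to Gm2442, and the sum of the 3 genes overlapped between the sets, 0.834 ± 0.475 against 1.68 ± 0.80 CPM (SD, n = 5 lines each; exact permutation test, p = 0.0873). Gm2023 did not pass after median centring (adjusted p = 0.0998), with age (0.114), body weight (0.121) or depth (0.0984) as a covariate, with mice as the unit and the line as a block (0.988), or with edgeR (0.540). It passed without IL-1452 (0.0454) or IL-557 (0.0144), and not without any other of the 10 lines (0.055 to 0.105).

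The remaining genes away from the locus that the naming rule gives, 10 in each direction with the called gene, did not pass the adjusted threshold with limma. DESeq2, which called 46 of 11239 genes over all, called Selenbp2, Slc22a7, Ubl7, B430219N15Rik, Ugt1a6b, Gcat, Ttc39c, Clcn7, Serpina7, Lass6, 1810064F22Rik and Cyp2c38 of them, and edgeR none. Picking genes by the smallest limma p in the same lines favours such calls, so they are not independent support. Srp54a, a subunit of the signal recognition particle, came closest. It had 0, 0, 0.44, 0.56 and 1.05 FPKM in the CAST lines and 6.64, 9.90, 3.48, 7.91 and 2.68 FPKM in the B6 lines (-2.30 ± 0.32, SE; limma, adjusted p = 0.0579), and passed with TPM (0.0369) and without IL-557 (0.0378). Its neighbours Srp54b and Srp54c are 99.9% and 99.7% identical, and the fragments of the 3 genes together were 56.9 ± 10.9 CPM in the CAST lines and 62.7 ± 10.8 in the B6 lines (exact permutation test, p = 0.317). Selenbp2, a selenium-binding protein, had 762.3, 616.9, 1703, 800.6 and 779.1 FPKM in the CAST lines against 151.4, 41.5, 28.5, 148.7 and 20.1 FPKM in the B6 lines (4.09 ± 0.66, SE; adjusted p = 0.138). Together with its copy Selenbp1 (98.5% identical) it still differed without overlap, by 2.32 on the log2 scale (exact permutation p = 0.00794, the smallest that 5 lines against 5 allow, and not adjusted for the genes named). The other 19 lines spanned 19.3 to 2097 FPKM of Selenbp2.

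Of the other genes higher in the CAST lines, Slc22a7, an organic anion transporter of hepatocytes, had 38.4 to 101.0 FPKM against 10.8 to 36.2 (1.63 ± 0.33, SE; adjusted p = 0.661, and 0.0403 with body weight as a covariate). Serpina1e, a member of the alpha-1 antitrypsin family, had 4379 to 12431 FPKM in the CAST lines, and in the B6 lines 5575 FPKM in IL-2156, 1247 in IL-1452 and at most 164.2 in the other 3. With its 5 copies, up to 96.5% identical, it differed by 0.30 (exact permutation p = 0.0873). Ugt1a6b, a glucuronosyltransferase, had 40.9 to 63.6 against 21.3 to 43.0 FPKM. The sum of Ugt1a6b and the copies that share its exons differed by -0.04 (exact permutation test, p = 0.794). That sum, 835.8 CPM in the CAST lines and 900.9 in the B6 lines, is mostly other genes, such as Ugt1a9 (213.3 and 378.8 CPM). It is therefore not a value of Ugt1a6b alone. The closest copy, Ugt1a6a, had 98.8 and 97.7 CPM. Ubl7, B430219N15Rik, Gcat, Myo6, Ttc39c and Clcn7 complete the 10, with differences from 0.42 to 1.54 and adjusted p from 0.713 to 0.956. Line means did not overlap for 5 of these 6, all but Ttc39c, against 0.744% of all genes. Picking genes by the smallest p favours this, so the count supports nothing.

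Of those lower in the CAST lines, Serpina7, the thyroxine-binding globulin gene on the X chromosome, had 2.16, 2.27, 2.68, 6.33 and 21.1 FPKM against 48.4, 46.5, 52.2, 15.3 and 31.5 (-2.69 ± 0.53, SE; adjusted p = 0.600), and overlapped only through IL-1513 and IL-1452. Cyp2c38, a P450 of another family, had 3.38 to 12.0 against 14.2 to 105.3 FPKM (-2.22 ± 0.57, SE; adjusted p = 0.956), without overlap. Together with its copy Cyp2c39 (93.6% identical) it differed by -2.06, and the sets overlapped (exact permutation test, p = 0.0317, not adjusted). Tlr12, Zfp644, Lass6 (ceramide synthase 6), Gm4963, 1810064F22Rik and Gt(ROSA)26Sor had differences from -1.495 to -0.39 with an adjusted p of 0.956 each, and the line means of Tlr12, Zfp644 and 1810064F22Rik did not overlap. Gm4963 was at 0 FPKM in every CAST line but IL-519, and without that line its adjusted p was 0.00104 (limma). Its fragments were few, 40.2 in all CAST mice and 121.4 in all B6 mice. The sum of Gm4963 and its 4 copies, up to 96.0% identical, differed by -0.22 and the sets overlapped (exact permutation test, p = 0.421). The copy Rps25 alone made 120.2 of 121.3 CPM in the CAST lines and 141.0 of 142.3 CPM in the B6 lines. The sum therefore cannot show whether Gm4963 itself differs. Gm4963 lies at chr5:138434275-138434652, on the chromosome of Cyp3a25 but outside the 5 Mb window.

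Among isoform ratios away from the window none passed (limma; 304 of all 6575 traits had an unadjusted p under 0.05). The smallest p-values were those of Rab22a, a GTPase of endosomes, and the class I histocompatibility genes H2-T10 and H2-Q8. Rab22a-001 made 70.4%, 78.2%, 74.8%, 80.2% and 71.8% of the gene in the CAST lines and 96.8%, 88.2%, 90.02%, 97.6% and 100% in the B6 lines, without overlap (-19.4 ± 3.3 percentage points, SE; limma, adjusted p = 0.232). H2-T10-201 made 77.3% to 100% against 52.6% to 72.1% (adjusted p = 0.232), and H2-Q8-002 made 13.8% to 28.2% against 40.3% to 86.3% (adjusted p = 0.577). With mice in place of line means and the line as a block, the H2-T10 and H2-Q8 traits passed, with adjusted p of 0.0207 and 0.0467. Their genes had as few as 32.2 and 11.2 fragments in a mouse. The other 7, of Bcar1, Nudcd2, Usp24, Agbl3, Zmynd8, 1810010H24Rik and Acp5, had adjusted p from 0.620 to 0.701. Line means did not overlap for 6 of the 7, against 0.837% of all traits, and picking traits by the smallest p favours this.

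No gene list of drug metabolism outside the Cyp3a family had a member called by limma, against 0.0443% of all genes. DESeq2 called Cyp2c38, Ugt1a6b and Ugt1a10 of these lists, Cyp3a41a and A1bg besides Cyp3a16 of the female-biased list, and Saa3 of the acute phase list. Over all genes DESeq2 called 46 of 11239. The counts at an unadjusted p under 0.05 that follow are from limma and stand beside 3.98% of all genes, 1.35% higher and 2.63% lower. The 14 nuclear receptors and partners of xenobiotic response had none at an unadjusted p under 0.05, and their median difference was -0.15 against -0.05 over all genes. Of 15 P450 genes that respond to PXR and CAR, Cyp2c38 alone had an unadjusted p under 0.05, and the median was -0.43. Of 35 conjugation enzymes, Ugt1a6b, Ugt1a10 and Gstp1 were higher and Sult1a1 lower at that level, with a median of 0.11. Sult1a1, a sulfotransferase, had 46.1 to 158.4 against 168.1 to 253.6 FPKM and did not overlap (adjusted p = 0.956). Of 17 genes of bile acid synthesis and transport only Cyp7a1, the rate-limiting enzyme of the classic pathway, reached an unadjusted p under 0.05, with 13.0 to 79.6 against 5.13 to 31.6 FPKM. Among 16 female-biased liver genes 1 was called by limma, Cyp3a16, and 4 had an unadjusted p under 0.05, Cyp3a16, Cyp3a41a and Cyp3a44 higher and A1bg lower, while the median of the list was -0.57. All 3 of the higher ones are Cyp3a genes of the cluster. Among 16 male-biased genes none was called by limma, 4 (Cyp2d9, Elovl3, Serpina1e and Nudt7) had an unadjusted p under 0.05, all higher, and the median was 0.41. Of 17 genes of the fasting response, Cyp4a10, Cyp4a14 and Cyp4a31, fatty acid hydroxylases, were lower in the CAST lines at that level, with 0.41 to 34.7 against 6.57 to 384.4 FPKM for Cyp4a14 (-4.94 ± 1.31, SE; adjusted p = 0.956). Of 21 acute phase genes, Saa3 and Crp were lower at that level and the median was -0.69. The Kupffer cell markers had a median of -0.71 with no member at that level, and their summed level was 46.0 to 111.0 FPKM in the CAST lines and 37.5 to 334.1 in the B6 lines (exact permutation p = 0.270). Of 20 interferon-stimulated genes, Gbp2 was lower at that level and the median was -0.000766. The lists of cholesterol synthesis, lipogenesis, the circadian clock and immediate early genes had no member at an unadjusted p under 0.05.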

How the data were processed

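Liver RNA of male CC mice was sequenced from stranded mRNA libraries as paired reads of 50 bases. The authors aligned all reads to the mouse reference genome (mm9, from strain C57BL/6J) and quantified genes and isoforms with RSEM 1.2.18 at default settings. The deposited tables hold FPKM, TPM, estimated counts (expected counts) per gene and isoform, and the percentage of a gene's expression taken by each isoform, all made by the authors with RSEM.

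Mice of a line were averaged and lines were the unit (5 CAST against 5 B6), so that p-values measure the spread between lines. The CAST line IL-2689 and the B6 lines IL-2126, IL-1452 and IL-557 had 1 mouse each, so that spread also holds differences between single mice. Genes reaching 2 FPKM in at least 1 mouse of the series were tested on log2(FPKM + 1) (pseudocount 1) with limma 3.58.1 in R 4.3.3, with Benjamini-Hochberg adjustment over 11284 genes and a threshold of 0.05. Isoform percentages were tested likewise, with 1 isoform per gene and 75 of 6650 traits dropped for missing ratios. Single quantities were tested with a two-sided exact permutation test. Genes on the same chromosome within 5 Mb of the middle of Cyp3a25 were taken as near. Named genes were all Cyp3a genes tested, called genes near Cyp3a25, and, elsewhere, the 10 genes in each direction and 10 isoform traits with the smallest p. Copies were transcripts with 90% identity over 50% of the length (BLAST+ 2.17.0). Gene positions and sequences came from GENCODE annotation and genome of the same build. TPM, expected counts rounded and summed per line (edgeR 4.0.16, DESeq2 1.42.0), other filters, pseudocounts and scalings, covariates, and each line left out served as alternatives. The test was checked on simulated data. The lines and gene lists were chosen with earlier results of these data known. Intervals cover counting error only.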

Additional observations from a re-analysis of the deposited data

Results flagged for a closer look

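Within each set of 5 lines, a line was singled out where its gap to the next line, as a share of the range of the set, exceeded Dixon's 95% critical value for 5 samples, which chance gives in about 1 in 20 sets, and 17 of 136 sets tested had such a line. IL-2146 accounted for 6 of the 17. Among the CAST lines its age was 9.3 weeks, with 8.0 to 8.3 weeks in the other 4, and its share of Cyp3a25-001 was 93.6% against 98.1% to 98.7%. On the log2(FPKM + 1) scale IL-2146 was low for Cyp3a13 at 4.803 (others 5.22 to 5.36) and for Cyp3a11 at 9.048 (others 10.69 to 11.28), and high for Selenbp2 at 10.73 (others 9.23 to 9.65) and for Gtf3a at 4.271 (others 3.33 to 3.59).

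In the remaining 11 sets, also on the log2(FPKM + 1) scale, IL-519 was high for Cyp3a41b at 0.8091 (others at most 0.00718) and for Gm4963 at 1.611 (others 0), and IL-1061 for Gm2023 at 0.1133 (others 0). Among the B6 lines, IL-1452 had 0.111 for Cyp3a16 and IL-2156 had 0.04583 for Cyp3a41b, each with the other 4 lines at 0, and IL-2126 had 3.296 for Gtf3a (others 2.76 to 2.89). Of the isoform shares, H2-T10-201 was 72.11% in IL-2126 (others 52.6% to 57.0%), Nudcd2-004 was 21.55% in IL-2156 (others 5.09% to 8.29%) and Gtf3a-003 was 45.81% in IL-2156 (others 31.2% to 33.6%). The depth of IL-2126 was 20.54 M (mega) fragments (others 25.3 to 27.0 M), and the summed cholangiocyte markers of IL-1513 were 43.85 FPKM (others 19.8 to 25.6 FPKM).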

How the results depend on the processing

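The 5 genes called with limma over all genes became 46 with DESeq2 (22 higher and 24 lower, with 250 adjusted p-values missing), 2 with age and 1 with depth as a covariate, and the 4 near Cyp3a25 became 8, 2 and 1. Cyp3a25, by which the lines were chosen, is in each of these counts except those with depth. Near Cyp3a25, 2 remained without the genes named Cyp3a, an alternative chosen after seeing the data, as were the sums with copies. Leaving out each line in turn gave 1 to 6 called genes (1 without IL-1061, IL-1513 or IL-2011), 1 to 5 near Cyp3a25 and 19 to 21 near it at an unadjusted p under 0.05. Called isoform traits were 1, and were 2 when all isoforms were tested, 4 with mice as the unit and the line as a block, 0 when 50 estimated counts were asked of every mouse, a filter that drops Rpl21, and 1 to 2 with each line left out (2 without IL-1452). Near Cyp3a25 the same settings gave 2, 2, 0 and 1 to 2, and the 10 traits at an unadjusted p under 0.05 became 37 with all isoforms and 9 to 12 with each line left out. The setting with all isoforms took every isoform that reached 5% in a mouse compared, instead of 1 per gene. Its counts come from more traits, several of the same gene, and cannot be set against the others. Of the single genes, the difference of Cyp3a11 reversed to -0.8119 with age and -0.1522 with body weight as a covariate and ranged from -0.01425 (without IL-2156) to 0.7009 with each line left out, that of Cyp3a59 reversed to -0.2785 with age, and that of Cyp3a41b ranged from -0.007372 (without IL-519) to 0.1949. The sum of Ugt1a6b and its copies differed by -0.03929, which was counted as a reversal although other genes make most of that sum. The age difference ranged from -1.69 to -1.065 weeks (p = 0.0556 by the exact permutation test without IL-2126). The cholangiocyte marker difference ranged from -69.8 to -37.25 FPKM, with p above 0.05 without any CAST line or without IL-2156. The Gm10163 difference ranged from 34.85 to 60.47 CPM, with p above 0.05 without IL-519, IL-2146, IL-2156, IL-1452 or IL-557. The causes of these changes were not tested. Of the other values of single genes and isoform traits under the alternatives, 1044 were counted as unchanged, 28 as gaining and 32 as losing the threshold of 0.05. Most of these genes and traits were not called with limma to begin with, and staying uncalled with the same sign counts as unchanged. The 1044 is therefore no measure of how stable the called genes are. Values of Cyp3a25 were judged by direction and size and not by the threshold, and its difference moved to 1.80 with age as a covariate. Sums with copies were judged by an exact permutation p that was not adjusted, the other values by direction and adjusted p. Total expression of Rpl21 was called under each alternative except with its copies summed. With 5 lines a set, no exact permutation p can fall below 0.00794. No paired analysis was possible because different lines share only a replicate number.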
